A study of Enchytraeus crypticus with 54 samples.

Results

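Adult *Enchytraeus crypticus*, a small white soil worm used in ecotoxicity tests, were kept for 7 days in soil from the Hygum site that carried aged copper contamination from the field, here called Cu-Field. Cu-Field was tested at EC50 and at EC20, the concentrations that reduce reproduction of this species by 50% and 20%. Each level had 3 arrays, so 6 of the 54 arrays of the series were Cu-Field at 7 days, and they were compared with the 3 arrays of worms kept for 7 days in Hygum soil from an uncontaminated control area. The members were chosen by their labels, not by their values. Every array held RNA from the whole bodies of a pool of clitellate adults, labelled with Cy3 on a 1-colour Agilent array. The rest of the series held Cu-Field and control at 3 days and copper nanowires (Cu-NWires), copper nitrate (CuNO3) and copper nanoparticles (Cu-NPs) at EC50 and EC20 at both times, also with 3 arrays per group. In those 3 forms the copper was added to the soil, whereas Cu-Field soil brought its copper from the field, so place of collection and copper form cannot be told apart. The labels call the replicates biological.

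Copper is an essential metal, carried by chaperones and transporters to enzymes such as cytochrome c oxidase and superoxide dismutase. In excess it binds thiol groups and promotes the formation of reactive oxygen species, and animals hold it in check by efflux, by storage in granules and by binding to metallothionein. Soil worms take it up from pore water through the skin and from swallowed soil through the gut, and copper that has aged in soil is in general less available than freshly added salt.

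The array carried 43750 probes to contigs and single reads of the transcriptome of this species, 1 probe for each target, and these gene probes are called genes below. The files pair each probe with the name of its contig or read only, so no gene is given a function here, known copper-handling genes could not be counted, and the whole-body label could not be set against tissue markers. The comparison used 19499 genes with a positive signal significantly above background on every one of the 54 arrays. A level below is the log2 processed signal minus the median of those genes on the same array. Because whole worms were extracted, fewer cells of a type and less RNA per cell cannot be told apart.

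One control array stood apart from the other 8. The median processed signal of the 19499 genes was 96.2 to 136 on the 6 Cu-Field arrays, against 114 and 115 on control replicates 1 and 2 and 47.5 on control replicate 3. The share of probes well above background was 47.7% to 60% on the Cu-Field arrays and 46.9% to 59.7% on the control arrays, with control replicate 3 the lowest. The first principal component of the 9 arrays, which held 48.8% of their variance, placed control replicate 3 at 141 and the other 8 arrays between -57.2 and 33.3. Between Cu-Field and control as groups, the median log2 signal of the tested genes was 6.9 ± 0.184 against 6.42 ± 0.733 (SD, n = 6 and 3, exact two-sided permutation p = 0.107). The share of probes well above background was 53.3% ± 4.24 against 53.7% ± 6.43 (exact permutation p = 0.929), and the level of the spike-in RNA was 13.3 ± 0.478 against 13 ± 0.377 on the log2 scale (exact permutation p = 0.417). With 84 arrangements the smallest possible p was 0.0119. Between replicates of one group the SD of a gene had a median of 0.36 in Cu-Field EC50, 0.39 in Cu-Field EC20 and 0.43 in control, and 0.23 between control replicates 1 and 2 alone.

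Cu-Field at both levels against control at 7 days gave 125 called genes (limma, Benjamini-Hochberg adjusted p below 0.05), which is 0.641% of the 19499 tested. Of these, 10 were higher and 115 were lower in Cu-Field worms. The median absolute fold change of the called genes was 2.61, and 8 of the 10 higher and 93 of the 115 lower genes changed by more than 1 on the log2 scale. Without adjustment, 2895 genes (14.8%) had p below 0.05, 850 higher and 2045 lower. The median change of all genes was -0.07, and 56.2% of them lay below 0.

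The higher gene with the widest change was contig15472. Its level was 5.47, 6 and 4.66 on the EC50 arrays and 5.47, 5.11 and 5.68 on the EC20 arrays, against 2.47, 3.82 and -0.69 on the control arrays. All 6 Cu-Field arrays lay above every control array, but such separation was a condition for naming a gene here. The controls themselves spread widely, with replicate 3 far below the others. The change was 3.53 ± 0.8 on the log2 scale (SE, limma), an 11.6-fold difference (adjusted p = 0.0238).

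The single read GYUW2K401DLFQG came second. Its level was 5.61, 6.31 and 5.1 on the EC50 arrays and 5.77, 5.22 and 6.43 on the EC20 arrays, against 3, 4.21 and 0.1 on the control arrays. The change was 3.31 ± 0.73 (9.89-fold, adjusted p = 0.019). Across the 54 arrays, after the mean of each group was taken out, the levels of these 2 genes had a correlation of 0.97; whether they belong to one transcript was not tested, since no sequence was at hand. Array by array the 2 genes thus moved closely together.

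The lower gene with the widest change was contig12246. Its level was 0.13, -0.43 and -0.36 on the EC50 arrays and 0.68, -0.54 and -2.14 on the EC20 arrays, against 2.37, 1.16 and 2.61 on the control arrays. The Cu-Field arrays lay below the controls, although EC20 replicate 1 at 0.68 came close to control replicate 2 at 1.16. The change was -2.49 ± 0.5, a 5.62-fold lower level (adjusted p = 0.00827).

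The second was contig18512, a dim gene. Its level was -2.91, -3.55 and -4.66 on the EC50 arrays and -3.34, -3.04 and -4.68 on the EC20 arrays, against -1.67, -2.13 and -0.25 on the control arrays. It was well above background on 1 of 3 EC50 arrays, 2 of 3 EC20 arrays and all 3 control arrays. The change was -2.35 ± 0.5 (limma, adjusted p = 0.0142), but its size is uncertain, since 3 of the 6 Cu-Field arrays did not lie well above background. With normexp background correction the change was -0.52 (adjusted p = 0.667), and without control replicate 3 it was -1.8 (adjusted p = 0.619).

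**Figure D1:**
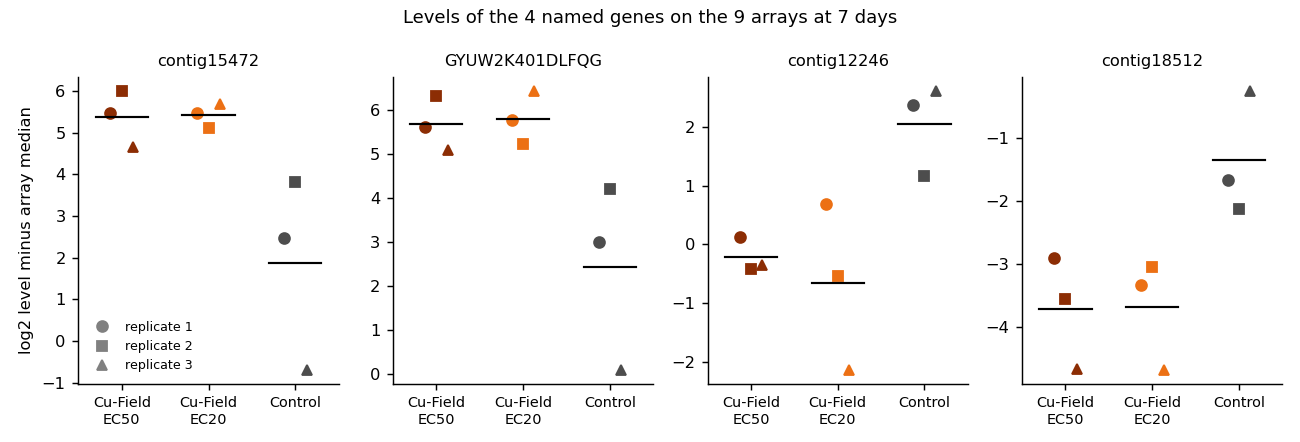
Level (log2 processed signal minus the array's median) of the 2 higher and 2 lower genes named in the text, for the 3 arrays each of Cu-Field EC50, Cu-Field EC20 and control at 7 days; symbols mark the replicate number and bars the group mean. In contig15472 and GYUW2K401DLFQG control replicate 3 (triangle) lies at -0.69 and 0.1, far under the other controls.

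The remaining called genes ranged between these. Changes in the higher genes ran from 0.79 to 3.53 with a median of 2.54, and in the lower genes from -2.49 to -0.6 with a median of -1.36. The 10 higher genes were mostly bright: with the tested genes split into 4 equal classes by mean signal, 8 lay in the brightest class and none in the dimmest. Of the 115 lower genes, 14 lay in the dimmest class, 34 and 47 in the next classes and 20 in the brightest. All genes of the dimmest class had a median change of -0.34, against 0.02 in the brightest, while 14 of the 4875 genes of the dimmest class (0.287%) were called. At an unadjusted p below 0.05 (limma), 851 genes of the dimmest class were lower and 36 higher, and 606 and 172 in the next. The third class had 366 lower and 338 higher, and the brightest 222 lower and 304 higher. Contigs made up 7 of the 10 higher genes and 41 of the 115 lower genes, while 46.9% of all tested genes were contigs.

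All 6 Cu-Field arrays lay above the 3 control arrays for 359 genes (1.84% of those tested) and below them for 739 genes (3.79%). Among the called genes, where the comparison itself did the choosing, 10 higher and 103 lower genes showed this separation. Few pairs of called genes followed each other closely between replicates, but such pairs were more frequent than among all genes. Their frequency was taken over all 54 arrays, which include the Cu-Field and control arrays that chose the genes. How far that choice raised it was not tested. Of the 7750 pairs of called genes, 22 (0.284%) had residuals around the group means that correlated at 0.9 or more across the 54 arrays, against 0.0435% of all gene pairs. One block of 11 lower genes was linked in this way, and 104 genes had no partner at that limit, which does not exclude weaker correlation. The mean level of the block was -0.56, 0.35 and 0.41 on the EC50 arrays and 0.94, 0.11 and 0.39 on the EC20 arrays, against 1.46, 1.17 and 2.86 on the control arrays.

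**Figure D2:**
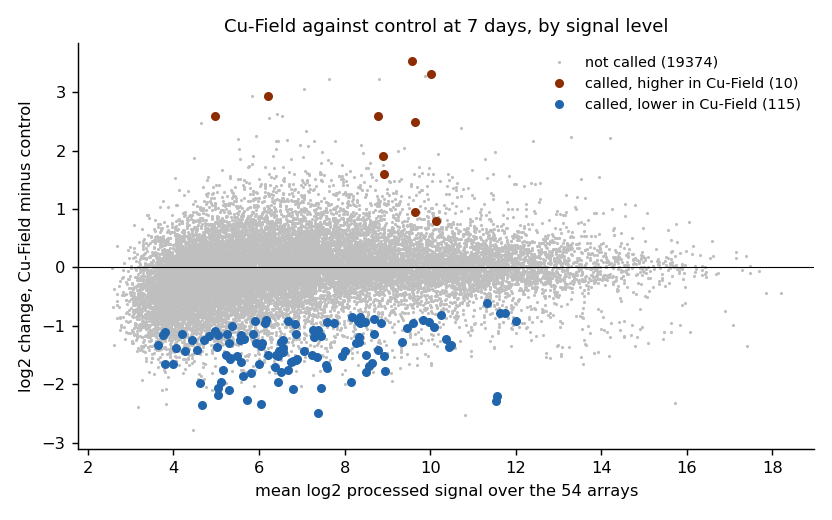
Change between Cu-Field (both levels) and control at 7 days (log2, Cu-Field minus control) against the mean log2 processed signal over the 54 arrays, for the 19499 tested genes. The 115 called lower genes lie between 3.63 and 12, where signals of tested genes reach 18.2. Of the 10 called higher genes 8 lie in the brightest of 4 equal classes, and none of the 10 lies above 10.14. The cloud bends below 0 at the dim end.

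These calls depended on control replicate 3. With that array left out, 2 genes were called in place of 125, both lower, and 801 genes had an unadjusted p below 0.05 (limma). Leaving out control replicate 2 gave 382 calls and leaving out control replicate 1 gave 66. Cu-Field EC50 replicate 1 and Cu-Field EC20 replicate 2 also moved the count, to 56 and 63 when left out. Without that array the 10 higher genes had a median change of 2.08 and the 115 lower genes one of -1.1, and all 125 kept their sign, as did 14908 of all 19499 genes. The 125 were chosen on 9 arrays of which 8 remain here, so their kept sign was largely fixed by the choice. Contig15472 was then at 2.25 ± 0.84 (limma, adjusted p = 1) and contig12246 at -2.21 ± 0.58 (adjusted p = 0.28). Control replicate 3 shared slide 1 with replicate 3 of the 3-day control. CuNO3 EC20 replicate 3 and Cu-NPs EC20 replicate 2, both at 7 days, lay there too. The median processed signal of the tested genes was 47.5 on control replicate 3, and 52.9, 35.9 and 82.9 on those arrays. What made control replicate 3 differ was not tested.

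The 2 genes that stayed called were single reads. They were singled out after their values were seen, and between replicates they followed each other with a correlation of 0.954 over the 54 arrays. One had levels of -0.45, 0.45 and 0.61 on the EC50 arrays and -0.01, 0.13 and 0.72 on the EC20 arrays, against 2.66, 2.26 and 2 on the control arrays. Here control replicate 3 was the nearest control to the Cu-Field arrays, and the 3 controls lay close together. The other had levels of -1.23, -0.62 and 0.05 on the EC50 arrays and -0.59, -0.36 and 0.18 on the EC20 arrays, against 1.99, 1.6 and 1.37 on the control arrays. With all arrays in the fit, these genes were lower in Cu-Field by 2.06 and 2.08 (limma, adjusted p = 0.00121 for each). Without control replicate 3 they were lower by 2.22 and 2.23 (limma, adjusted p = 0.0108 for each). Controls averaged -0.34 ± 0.21 and -1.12 ± 0.23 in them at 3 days (SD, n = 3). At 7 days the control means were 2.31 ± 0.34 and 1.66 ± 0.31, so the difference is from controls that were higher than at 3 days.

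The direction of the calls also depended on the scaling between arrays. Median scaling gave 10 higher and 115 lower genes, quantile normalization 8 and 106, and the 75th percentile 9 and 161. Standard-vector condition-decomposition (SVCD), the method developed in the study, which estimates the scaling between conditions from genes that do not vary, gave 3276 higher and 77 lower genes. It moved the median change of all genes to 0.41, from -0.07 with median scaling, so most genes read as higher in Cu-Field. With control replicate 3 left out, SVCD gave 0 higher and 4 lower genes and a median change of -0.1. Scaling to the spike-in RNA gave 1 higher and 3 lower genes with a median change of 0.11, and unscaled signals gave 4 higher and 0 lower with a median change of 0.41. The 4 named genes kept their direction under all of these, but with spike-in scaling none of them passed the test (limma, adjusted p from 0.194 to 0.366), nor did any with unscaled signals (0.131 to 0.239) or under SVCD without control replicate 3 (0.135 to 0.761).

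**Figure D3:**
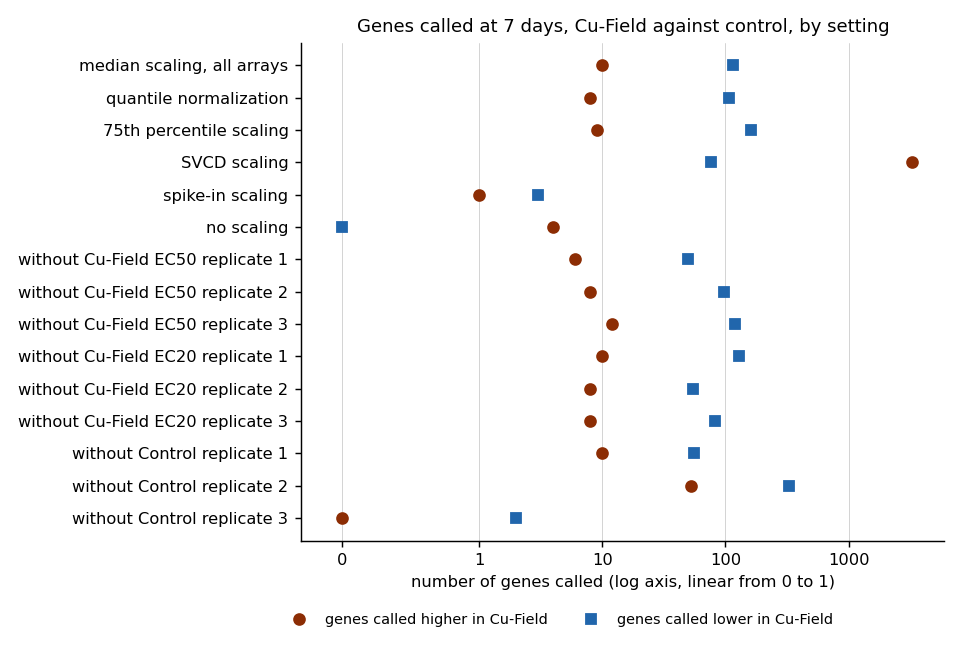
Number of genes called higher and lower in Cu-Field (both levels) against control at 7 days, for 6 between-array scalings and with each of the 9 arrays left out under median scaling; the axis is logarithmic, and linear from 0 to 1. SVCD turns the balance to 3276 higher and 77 lower genes, and leaving out control replicate 3 brings the count to 2.

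Scan days and 1 slide held both groups, so differences could be read within them, while slide 5 held 3 of the 6 Cu-Field arrays and no 7-day control. On scan day 1, with 4 Cu-Field arrays and 1 control array, the 10 higher genes had a median difference of 1.91 and the 115 lower genes one of -1.16. On scan day 2, with 2 Cu-Field arrays and control replicates 2 and 3, these were 3.31 and -1.42. On slide 14, which held Cu-Field EC50 replicate 3 and control replicate 2, they were 0.99 and -0.88, and contig15472 differed there by only 0.84. Every one of the 125 genes kept its sign in each, which their choice largely fixed. With slide as a fixed term in the fit 4 genes were called, and with slide as a random block 92.

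Taken by level, EC50 against control called 64 genes (0.328% of those tested), 5 higher and 59 lower. EC20 against control called 6 genes (0.0308%), all lower, and 5 of these 6 were also called at EC50. Leaving out single arrays moved these counts between 1 and 303 at EC50 and between 0 and 25 at EC20. The 4 named genes were not called at either level alone. Contig15472 changed by 3.51 ± 0.93 at EC50 (limma, adjusted p = 0.0815) and by 3.55 ± 0.93 at EC20 (adjusted p = 0.151), and contig12246 by -2.27 ± 0.58 (adjusted p = 0.0692) and -2.71 ± 0.58 (adjusted p = 0.0581).

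EC50 against EC20, the test of whether the level mattered, called 0 genes (0% of 19499, limma), and 353 genes (1.81%) had an unadjusted p below 0.05. That share is below the 0.05 passed on average where no gene differs. The simpler test named in the study's methods, run on the same values, called 0 as well, with 430 genes at an unadjusted p below 0.05. For the named genes the difference of EC50 minus EC20 was -0.05 in contig15472 (95% interval -1.92 to 1.83), -0.13 in GYUW2K401DLFQG (-1.83 to 1.56), 0.44 in contig12246 (-0.72 to 1.61) and -0.02 in contig18512 (-1.18 to 1.15). These intervals are wide, and each reaches past a 2-fold difference in both directions except that of contig12246, whose lower end lies at -0.72. Over all tested genes the interval had a median half-width of 0.75, and it lay within -1 and 1 for 52% of them. Of the 115 lower genes, 86 had a wider change at EC50, with a median of -1.47 at EC50 and -1.24 at EC20, and 6 of the 10 higher genes did, with medians of 3.05 and 2. Over all genes, 11838 of 19499 had a wider change at EC50.

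The same comparison at 3 days used different arrays and called 1183 genes, 6.07% of those tested: 466 higher (2.39%) and 717 lower (3.68%). Slide 2 held replicates 2 and 3 of both Cu-Field levels at 3 days and no other array. The 3-day controls lay on slides 5, 10 and 1. On those Cu-Field arrays slide and treatment cannot be told apart, and no count with a slide term was made for the 3-day comparison. None of the 10 genes higher at 7 days was called at 3 days, and 9 of them lay below 0 there, with a median of -0.29. Of the 115 genes lower at 7 days, 20 (17.4%) were called higher at 3 days and 1 was called lower, and 86 (74.8%) had a change above 0, against 42.3% of all tested genes. Their median change at 3 days was 0.4, against -0.1 over all genes. The 2 single reads that stayed called without control replicate 3 were among those 20, with changes of 2.8 and 3.07 at 3 days (limma, adjusted p = 1.23e-06 and 3.87e-07).

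**Figure D4:**
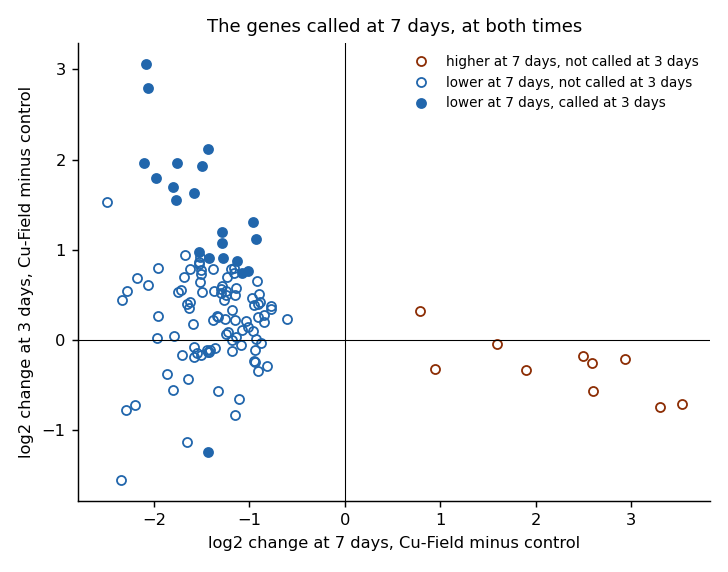
Change in Cu-Field against control at 7 days (horizontal) and at 3 days (vertical), both log2, for the 125 genes called at 7 days; filled symbols were also called at 3 days. Of the 115 lower genes, 20 filled points lie above 0 and 1 below, and none of the 10 higher genes is filled.

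The Cu-Field effect at 7 days differed from that at 3 days for 245 genes (limma interaction term, 1.26% of those tested). Of these, 39 were more positive and 206 more negative at 7 days. With slide as a fixed term the count was 50. The named genes were chosen by their 7-day change, which is part of this difference, so whether they passed was partly fixed by that choice. Contig15472 and GYUW2K401DLFQG were among the 245, with differences of 4.23 ± 1.14 (adjusted p = 0.0486) and 4.05 ± 1.03 (adjusted p = 0.0334). Contig15472 passed in 5 and GYUW2K401DLFQG in 13 of 25 alternatives. With control replicate 3 left out the differences were 2.96 and 2.88 (adjusted p = 0.239 and 0.185), and neither gene passed with slide as a fixed term (0.175 and 0.162) or with scan day (0.115 and 0.0833). Contig15472 also missed the threshold with slide as a random block (0.0512) and with a replicate block (0.0557). The Cu-Field change of contig15472 was 3.53 at 7 days and -0.7 at 3 days (adjusted p = 0.616 at 3 days). Contig12246 differed by -4.02 ± 0.71 (adjusted p = 0.000743), with changes of -2.49 at 7 days and 1.53 at 3 days (adjusted p = 0.0565 at 3 days), and it passed in all 25 alternatives. For contig18512 the changes were -2.35 and -1.55 and the difference of -0.8 ± 0.71 did not pass (adjusted p = 0.776).

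The controls themselves differed between the times. Control at 7 days against control at 3 days called 609 genes (3.12%), 359 higher and 250 lower, a list formed after the data were seen, from control arrays that the comparisons above share. On the Cu-Field arrays the change of those 359 genes between 7 and 3 days had a median of 0.17 and that of the 250 genes one of -0.28. The same medians were 0.49 and -0.81 for CuNO3, 0.34 and -0.51 for Cu-NPs and 0 and -0.03 for Cu-NWires. The mean level of the 359 genes was 0.63 to 0.97 on Cu-Field arrays at 7 days and 0.48 to 1.1 on Cu-Field arrays at 3 days, against 0.91 to 1.16 on control arrays at 7 days and -0.34 to -0.16 on control arrays at 3 days. The mean level of the 250 genes was 0.16 to 0.69 and 0.5 to 1.03 on the Cu-Field arrays at 7 and 3 days, against 0.17 to 0.73 and 1.85 to 2.01 on the control arrays at 7 and 3 days. On both lists the Cu-Field arrays of both times lay nearer to the 7-day controls than to the 3-day controls. This was not particular to Cu-Field, since Cu-NWires arrays at 3 days did so too. Their mean levels were 0.76 to 0.91 (EC50) and 0.61 to 0.88 (EC20) for the 359 genes. For the 250 genes they were 0.65 to 0.87 and 0.15 to 0.76. Cu-Field at 7 days against Cu-Field at 3 days itself called 1023 genes (5.25%), 289 higher and 734 lower.

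Against the other 3 copper forms at 7 days, a comparison that leaves the controls out, Cu-Field called 487 genes (2.5% of those tested), 79 higher and 408 lower. The count rests on the same 6 Cu-Field arrays, and without Cu-Field EC20 replicate 2 it was 72, without EC50 replicate 3 it was 108, without EC20 replicate 3 it was 129 and without EC50 replicate 1 it was 180. SVCD gave 7507 higher and 147 lower genes here, and without control replicate 3 in its scaling 185 and 884. Form by form, Cu-Field against Cu-NPs called 1088 genes (5.58%), 234 higher and 854 lower. Against CuNO3 it called 625 genes (3.21%), 136 higher and 489 lower. Against Cu-NWires it called 2 genes (0.0103%), although 2522 had an unadjusted p below 0.05 (limma). Whether the forms differed from each other in this was not tested. The 3 other forms as 1 group against control called 0 genes (0%; limma), with 534 at an unadjusted p below 0.05. Form by form against control, Cu-NWires called 17 genes (0.0872%), 4 higher and 13 lower, CuNO3 called 1 (0.00513%) and Cu-NPs called 0, with 1591, 694 and 460 genes at an unadjusted p below 0.05 (limma).

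The same 6 Cu-Field arrays had served to choose the named genes. Whether those genes passed here, and where they ranked among the groups, was partly fixed by that choice. Contig18512 and contig12246 were lower in Cu-Field than in the 3 other forms as a group, by 1.93 ± 0.33 and 1.62 ± 0.33 on the log2 scale (limma, adjusted p = 0.00197 and 0.00866). Against Cu-NWires alone neither passed, at -0.87 and -1.27 (limma, adjusted p = 0.385 and 0.369). Both passed against CuNO3, at -2.25 and -1.43 (limma, adjusted p = 0.00199 and 0.042). Both also passed against Cu-NPs, at -2.68 and -2.16 (limma, adjusted p = 0.000718 and 0.0031). Against the 3 forms as a group, contig18512 passed in 17 of 22 alternatives. It was at -0.42 with normexp (adjusted p = 0.183), and it did not pass with slide as a fixed term (0.0894). Contig12246 passed in 18 of 23, and did not without Cu-Field EC20 replicate 3 (-1.25, adjusted p = 0.0624) or with spike-in scaling (-1.36, 0.261). Contig15472 and GYUW2K401DLFQG were 1.35 ± 0.54 and 1.2 ± 0.48 higher in Cu-Field than in that group and did not pass (adjusted p = 0.123 and 0.127). Contig15472 had its highest means of the 18 groups in the Cu-Field groups at 7 days, 5.38 ± 0.67 at EC50 and 5.42 ± 0.29 at EC20 (SD, n = 3 each). CuNO3 EC50 at 7 days followed at 4.86 ± 0.55 and Cu-NPs EC50 at 4.58 ± 0.37, which overlap with Cu-Field EC50 within their spread, and control at 7 days was the lowest 7-day group at 1.87 ± 2.31. Contig18512 had its lowest means in Cu-Field at 7 days, -3.71 ± 0.89 at EC50 and -3.69 ± 0.87 at EC20, followed by Cu-NWires at 7 days with -2.73 ± 1 at EC50 and -2.93 ± 0.1 at EC20. In the 2 single reads that stayed called, Cu-NWires at 7 days also lay low. The first averaged 0.2 ± 0.57 in Cu-Field EC50 and 0.28 ± 0.39 in Cu-Field EC20, and 0.58 ± 0.27 in Cu-NWires EC50 and 0.16 ± 0.23 in Cu-NWires EC20, whereas CuNO3 EC50 had 2.24 ± 0.3, Cu-NPs EC50 1.61 ± 0.42 and control 2.31 ± 0.34.

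Probes outside the 19499 genes were not part of the main fit and are described here by whether they were detected. Over all 43750 probes, 6 were well above background on all 6 Cu-Field arrays and on none of the 3 control arrays, and 29 on none of the Cu-Field arrays and all 3 control arrays. All 6 of the first and 26 of the second were outside the tested genes. Neither set was particular to Cu-Field against the other forms. Of the 18 arrays of the other copper forms at 7 days, 7 to 12 detected each of the 6 probes well above background, and 2 to 13 each of the 29. The bound on the change, from the Cu-Field mean against the lowest signal that counted as well above background on each control array, was at least 1.34-fold to at least 43-fold for the 6 probes, and 1.78-fold to 4.94-fold in the other direction for the 29. With a single array left out these counts ran from 6 to 27 and from 31 to 210. The highest counts came without control replicate 2, and without control replicate 3 they were 6 and 96.

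The largest bound belonged to 1 contig, chosen here after its values were seen, that was either far above or close to background. Its processed signal was 512, 738 and 538 on the EC50 arrays and 719, 640 and 146 on the EC20 arrays, against 3.27, 6.23 and 6.08 on the control arrays, so it was at least 43-fold higher. No array lay between these ranges anywhere in the series: 22 arrays had 146 to 1930 and the other 32 had at most 10.8. At 7 days the 22 included all 6 Cu-NWires arrays, at 354 to 757, and none of the CuNO3, Cu-NPs or control arrays, although 1 Cu-NPs EC50 array was well above background at a signal of 8.26. At 3 days they included none of the 6 Cu-Field and 3 control arrays, and 10 of the 18 arrays of the other 3 forms. Both kinds of array occurred together on 9 of the 14 slides. The labels name no batch of worms or of extraction, so whether this signal follows the copper treatment or such a batch was not tested, and the bound describes these 9 arrays only.

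**Figure D5:**
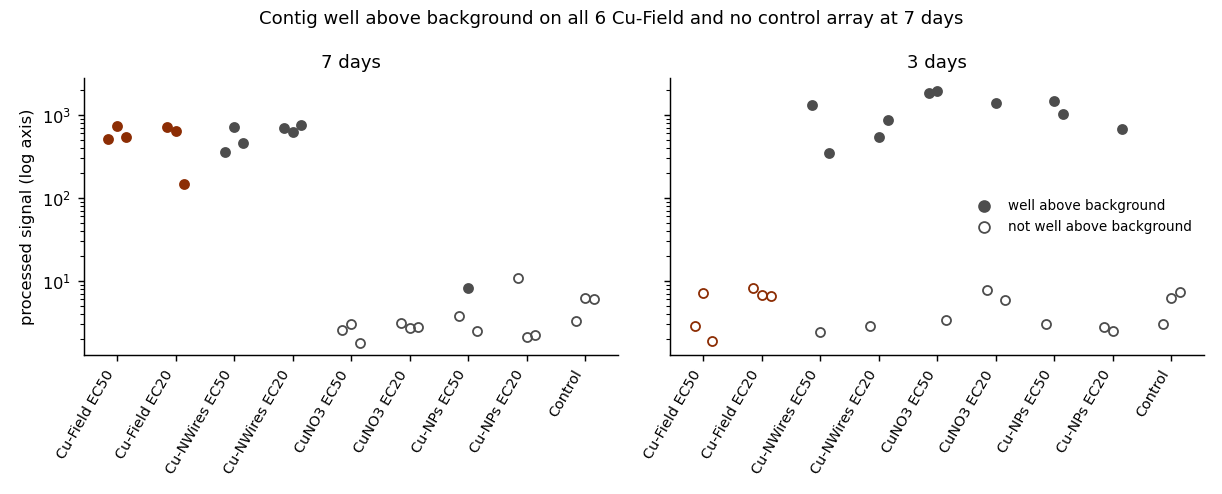
Processed signal (log axis) on each of the 54 arrays, by group at 7 and at 3 days, of the contig that was well above background on all 6 Cu-Field and on no control array at 7 days; open symbols were not well above background. The signal is 146 or more on 22 arrays and at most 10.8 on the other 32.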

How the data were processed

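RNA from pools of whole adult worms was hybridised, 1 sample per array, to a custom Agilent array, and the authors deposited scanner files made with Agilent Feature Extraction (version 10.7.3.1 in the file headers). The deposited processed signal is an intensity, background-subtracted by that software and not scaled between arrays, and the deposited value table holds the same intensity (ratios of 0.995 to 1). Fold changes in the text are computed here. Depth has no meaning for arrays; the 3 arrays per group limit the precision.

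Of 43750 non-control probes, 19499 were positive and significantly above background on all 54 arrays and were kept. Log2 processed signals were centred on each array's median. limma (version 3.58.1, R 4.3.3) was fitted with 1 mean for each of the 18 groups, and p-values were Benjamini-Hochberg adjusted over all 19499 genes with a threshold of 0.05. Single values per array were compared by exact permutation tests. Named genes are the 2 higher and 2 lower called genes with the largest change whose 6 Cu-Field arrays did not overlap the 3 control arrays. The members, lists and tests were chosen with earlier results of these data known. Alternatives covered scaling, background correction, filters, test, slide, scan day, replicate number and left-out arrays; those chosen after seeing the data were SVCD without control replicate 3, left-out arrays for the array measures and detection counts, and the within-slide and within-day differences. The scripts were tested on simulated data. Normexp used the median spot signal.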

Additional observations from a re-analysis of the deposited data

Results flagged for a closer look

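The Cu-Field effect differed between 7 and 3 days by a test of the difference itself (limma, interaction term) for 245 genes. With slide as a fixed term the count was 50. Of the 4 named genes 3 were among the 245, contig15472 (4.23), GYUW2K401DLFQG (4.05) and contig12246 (-4.02, all on the log2 scale, 7 days minus 3 days). The named genes were chosen by their 7-day change, which is part of this difference. Whether they passed was therefore partly fixed by that choice. Without control replicate 3, contig15472 was at 2.96 and GYUW2K401DLFQG at 2.88, and neither passed (adjusted p = 0.239 and 0.185), while contig12246 was at -3.74 (limma, adjusted p = 0.007).

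A signal appeared outside the tested genes in 6 probes, which were well above background on all 6 Cu-Field arrays and on no control array at 7 days. Each of these probes was also well above background on 7 to 12 of the 18 arrays of the other copper forms at 7 days. The largest bound among them was at least 43-fold, in the contig whose signal was 146 or more on 22 arrays and at most 10.8 on the other 32, 1 of which, a Cu-NPs EC50 array at 7 days, was still well above background at 8.26. Whether that signal follows the treatment was not tested.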

How the results depend on the processing

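The counts below follow the order Cu-Field at both levels, EC20 and EC50 against control, then EC50 against EC20, the 7-day against the 3-day effect, and Cu-Field against the other forms (main counts 125, 6, 64, 0, 245 and 487); a comparison not mentioned stayed within 1.5 times its count. SVCD scaling gave 3353, 85 and 3073, then 437 for time and 7654 for forms, and without control replicate 3 it gave 4, 0 and 2, and 1069 for forms. Quantile normalization gave 11 at EC20 and 201 for forms, and the 75th percentile 25 at EC20 and 117 at EC50. Spike-in scaling gave 4, 0 and 0, 3771 for time and 23 for forms, and no scaling 4, 0 and 3, and 4 for forms. Normexp correction gave 48, 25 and 32, 3 between the levels, 153 for time and 101 for forms. Requiring a signal well above background on all arrays gave 29 at EC20 and 103 at EC50, no filter gave 6, 0 and 2, 95 for time and 9 for forms, and the filter on arrays of the contrast alone gave 57, 0 and 26. Fitting only the groups compared gave 0, 0 and 0 (2259, 1169 and 1603 genes at an unadjusted p below 0.05), and 53 for forms, and the t-test of the methods 1, 0 and 0 (2242, 1154 and 1132 at an unadjusted p below 0.05), and 0 for forms (3297 unadjusted); it was not run for the time effect. Slide as a fixed block gave 4, 0 and 0, 50 for time and 16 for forms, slide as a random block 3 at EC20 and 222 for forms, and scan day 0 at EC20.

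With single arrays left out the counts ranged from 2 to 382 for both levels, 0 to 25 at EC20, 1 to 303 at EC50, 0 to 4 between the levels, 131 to 256 for time and 72 to 580 for forms. Probes gained ranged from 6 to 27 and probes lost from 31 to 210. The group difference ranged from -0.168 to 0.314 for the median log2 signal of all probes, 0.0582 to 0.694 for that of tested genes, -3.82 to 2.56 percentage points for probes well above background and 0.085 to 0.419 for the spike-in level, with none past the threshold. Replicate numbers did not pair the arrays: same-numbered arrays of the 3 groups had residual correlations between -0.521 and 0.443, and the fit with a replicate block gave 114, 4, 47, 0, 219 and 422 calls. The 4 named genes kept their sign against control in every alternative run, with contig15472 between 2.17 and 4.51, GYUW2K401DLFQG between 2.06 and 4.19, contig12246 between -3.31 and -1.61 and contig18512 between -2.74 and -0.52 (limma, highest adjusted p 1, 0.91, 0.356 and 0.667). They lost their call in 11, 9 and 8 of 26 and 9 of 25 alternatives, and against the 3-day effect contig18512 turned to 0.23 with normexp. The causes were not tested. Dim genes such as contig18512 lie near the background, where the log2 change is least certain.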
